A study of Mus musculus with 12 samples.

Results

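BMP ligands, their receptor and inhibitors, and the Id genes that BMP signalling is known to induce were followed in mouse pluripotent cells that differ in Tbx3, a T-box transcription factor. The 10 genes were Bmp2, Bmp4, Bmp7, Bmpr1a, Id1, Id2, Id3, Id4, Smad6 and Bambi. They were found as the probes that are not controls and carry one of these gene names in the scanner files, which gave 11 probes of 55681 and 10 genes of 24303 named genes. Bmp4 had 2 probes and every other gene had 1. RNA was measured on 12 Agilent one-colour arrays. Embryonic stem cells (mESC) gave 4 arrays labelled Tbx3-low and 4 labelled Tbx3-high. Induced pluripotent stem cells (iPSC), which are reprogrammed body cells, gave 2 arrays labelled Tbx3 null and 2 labelled wild type. The labels do not say how Tbx3-low and Tbx3-high cells were separated, which part of the gene the null allele lacks, how many clones were used or whether replicates came from separate cultures, so p-values measure only the spread between these arrays, which may be technical.

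BMP ligands are secreted proteins that bind paired type I and type II serine/threonine kinase receptors on the cell surface. The receptors phosphorylate Smad1, Smad5 and Smad9, which join Smad4 in the nucleus and switch on targets, among them the Id genes and the pathway's own inhibitors. Id proteins have a helix-loop-helix domain but no DNA-binding region, so they pair with E proteins such as Tcf3 and Tcf4 and keep them from DNA. In mouse embryonic stem cells BMP4 acting through Id genes is known to restrain neural differentiation and to help LIF sustain self-renewal.

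The Tbx3 probe was checked first. Its log2 signal relative to the 75th percentile of the array lay between 5.72 and 5.76 on the Tbx3-low arrays and between 7.03 and 7.12 on the Tbx3-high arrays, a 2.51-fold difference (log2 1.33 ± 0.08 SE, adjusted p = 7.3e-07 by limma with Benjamini-Hochberg adjustment). In iPSC the probe read 5.51 and 5.48 on the null-labelled arrays and 4.996 and 5.353 on the wild-type arrays, so it was higher under the null label (0.32 ± 0.11, adjusted p = 0.0482 by limma), which goes against the label. Because the deleted part of the gene is not known here, this probe cannot check that label, and every direction below for iPSC rests on the label alone. The raw 75th percentile signal ranged from 313.8 to 457.7 on the mESC arrays and from 699.8 to 1007 on the iPSC arrays. Spots well above background made up 55.9% to 64.8% of the mESC arrays, 68.0% and 68.6% of the wild-type arrays and 62.4% and 63.0% of the null-labelled arrays. No spot was saturated. mESC lay on slide 1 and iPSC on slide 2, so their levels were not compared. Within each slide the groups also occupied different columns, Tbx3-low and wild type in columns 1 and 2, Tbx3-high and null-labelled in columns 3 and 4, so slide column and group cannot be told apart. All 8 pluripotent cell markers, Pou5f1, Sox2 and Nanog among them, were well above background on every array of every group.

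RefSeq start-site windows were held for 6 of the 10 genes: Bmp4, Bmpr1a, Id2, Id3, Id4 and Smad6. The 250 bases before the start of Id2, Id3 and Id4 are printed from build GRCm38.p6, 5′ to 3′ on the gene's strand, because these genes moved in 3 different patterns. Id2 lies at chr12:25096093-25096342 on the minus strand, Id3 at chr4:136143572-136143821 on the plus strand and Id4 at chr13:48260866-48261115 on the plus strand. Capitals mark matches, on either strand, to GGCGCC (a GC-rich Smad-binding motif), GGTGTG (the core of the T-box half-site) and CANNTG (the E-box bound by E proteins).
Id2: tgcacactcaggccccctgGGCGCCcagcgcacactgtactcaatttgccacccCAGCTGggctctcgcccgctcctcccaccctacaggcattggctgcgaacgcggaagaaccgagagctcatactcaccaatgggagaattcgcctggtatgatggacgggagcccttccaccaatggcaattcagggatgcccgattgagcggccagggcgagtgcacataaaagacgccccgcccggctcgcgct
Id3: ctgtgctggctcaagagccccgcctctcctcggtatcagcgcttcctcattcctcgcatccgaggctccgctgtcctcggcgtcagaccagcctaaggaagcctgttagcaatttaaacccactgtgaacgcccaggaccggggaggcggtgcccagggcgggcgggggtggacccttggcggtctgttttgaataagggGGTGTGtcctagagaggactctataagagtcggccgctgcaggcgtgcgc
Id4: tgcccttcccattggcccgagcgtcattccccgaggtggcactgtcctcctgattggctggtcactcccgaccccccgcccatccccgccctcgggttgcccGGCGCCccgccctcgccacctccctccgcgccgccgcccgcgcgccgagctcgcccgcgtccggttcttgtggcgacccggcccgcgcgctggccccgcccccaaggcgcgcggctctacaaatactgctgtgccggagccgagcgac

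GGCGCC was found in the windows of Id2 (starting 231 bases before the start site), Id4 (148 bases before) and Bmpr1a (198 bases before), and in 9.59% of the 32851 windows of the same length in the RefSeq table. GGTGTG was found only in the window of Id3 among the 6 genes, 50 bases before the start, and in 16.3% of all windows. CANNTG was found at 1 place in Id2, 196 bases before the start, and at 3 places in Bmp4, 188, 177 and 123 bases before it; 66.2% of all windows held it. The Smad box letters CAGACA, present in 17.1% of all windows, were in none of the 6, and the Smad6 window held none of the 4 motifs. The matches did not overlap each other, and a match is a description of the letters, not a bound site.

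All 4 Id genes differed between Tbx3-high and Tbx3-low mESC, where 25.9% of all probes tested passed. Id1, Id3 and Id4 were higher in Tbx3-high cells by 1.71-fold to 1.76-fold, and Id2 was 3.12-fold lower. All 4 also differed between null-labelled and wild-type iPSC, where 28.3% of all probes tested passed. The Id3 call in iPSC was lost under several alternatives, given below. In iPSC, Id1 and Id3 were lower and Id2 was higher under the null label, the reverse of their sign in Tbx3-high cells. Id4 was higher in both. Values are log2 processed signals minus the 75th percentile of the array; a probe passed where the limma p-value adjusted by Benjamini-Hochberg over all probes tested was under 0.05.

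Id1 is a broadly used readout of BMP and Smad1/5 activity, and its probe lies at chr2:152563083-152563142 (mm9, plus strand). Id1 read 0.57, 0.59, 1.10 and 0.99 on Tbx3-low arrays 1 to 4 and 1.54, 1.44, 1.76 and 1.76 on Tbx3-high arrays 1 to 4. The lowest Tbx3-high array stood above the highest Tbx3-low array, and in both groups replicates 3 and 4, which lay in row 2 of the slide, read higher than replicates 1 and 2. The change was 0.82 ± 0.13 (SE, n = 4 and 4, adjusted p = 8.1e-04 by limma). Within row 1 of the slide it was 0.91 and within row 2 it was 0.72. In iPSC, Id1 read 1.27 on both wild-type arrays and 0.27 and 0.25 on the null-labelled arrays. The 2 groups were further apart than either pair of replicates, and the change was −1.004 ± 0.19, a 2.01-fold fall (n = 2 and 2, adjusted p = 0.0027 by limma).

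Id2, an Id gene that is also an early marker of the trophectoderm lineage in the mouse embryo, has its probe at chr12:25778904-25778963 (mm9, minus strand). Id2 read 2.24, 2.18, 2.38 and 2.38 on the Tbx3-low arrays and 0.66, 0.72, 0.65 and 0.58 on the Tbx3-high arrays. The groups were separated by over 1 log2 unit while each group spanned a small part of that. The change was −1.64 ± 0.10 (adjusted p = 1.5e-06 by limma), the only fall among the 10 genes in mESC and the largest change among those measured well above background on every array. In iPSC, Id2 read −2.13 on both wild-type arrays and −0.68 and −1.21 on the null-labelled arrays. The null-labelled replicates differed by more than any other pair of Id2 replicates, yet both lay above the wild-type arrays. The change was 1.18 ± 0.15, a 2.27-fold rise (adjusted p = 2.6e-04 by limma).

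Id3, usually co-induced with Id1 by BMP, has a probe whose 60 bases span chr4:135700075-135700249 (mm9, plus strand), 175 bases of the genome. Id3 read 0.48, 0.63, 0.22 and 0.44 on the Tbx3-low arrays and 1.24, 1.26, 1.17 and 1.19 on the Tbx3-high arrays. The Tbx3-high arrays lay close together and all above the Tbx3-low arrays. The change was 0.77 ± 0.09 (adjusted p = 8.2e-05 by limma). In iPSC, Id3 read 2.75 and 2.89 on the wild-type arrays and 2.47 and 2.40 on the null-labelled arrays, without overlap. The change was −0.38 ± 0.12, a 1.30-fold fall (adjusted p = 0.0428 by limma). This call was lost without each of the 4 iPSC arrays in turn, where 1 group has a single array that is assumed to vary like the other groups. The change was −0.41 without null-labelled replicate 1 and −0.35 without replicate 2. It was −0.45 without wild-type replicate 1 and −0.31 without replicate 2. With all 4 iPSC arrays kept, the call was also lost when only these arrays were fitted (adjusted p = 0.102 by limma). It was lost too with replicate number as a block (adjusted p = 0.0553 by limma). Why the call was lost was not tested.

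Id4, best known from neural precursors, has its probe at chr13:48358668-48358727 (mm9, plus strand). Id4 read −0.79, −0.73, −0.82 and −0.42 on the Tbx3-low arrays and −0.0050, −0.08, 0.16 and 0.24 on the Tbx3-high arrays. No Tbx3-low array reached the Tbx3-high arrays, and Tbx3-low replicate 4 came nearest. The change was 0.77 ± 0.11, a 1.71-fold rise (adjusted p = 4.4e-04 by limma). In iPSC, Id4 read −1.15 and −1.06 on the wild-type arrays and 0.22 and −0.06 on the null-labelled arrays. Both null-labelled arrays stood at least 1 log2 unit above the wild-type arrays, and the change was 1.18 ± 0.16, a 2.27-fold rise (adjusted p = 3.8e-04 by limma).

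**Figure D1:**
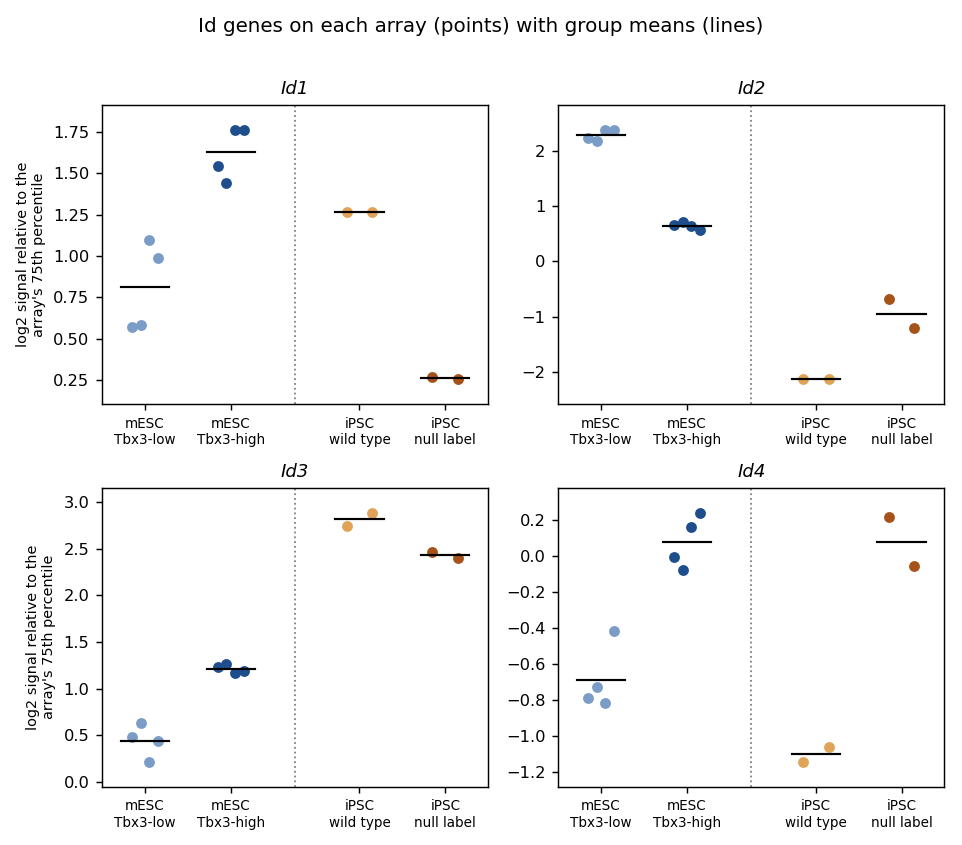
Log2 signal of Id1, Id2, Id3 and Id4 relative to the 75th percentile of each array (vertical axes, 1 scale per gene), for Tbx3-low and Tbx3-high mESC (n = 4 each) and wild-type and null-labelled iPSC (n = 2 each). Points are arrays, black lines are group means, and the dotted line separates the slides. Within each slide the groups of every Id gene do not overlap, as for 29.2% of all probes tested in mESC and 66.4% in iPSC. Id2 is lower in Tbx3-high cells and higher under the null label.

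Whether the change that follows Tbx3 differed between the cell systems was tested directly, as (Tbx3-high minus Tbx3-low) minus (wild type minus null-labelled). The value is near 0 where the change with the higher-Tbx3 or wild-type label has the same sign and size in both systems, or where neither changes. Id4 was the only one of the 9 genes tested that passed, at 1.95 ± 0.20 (95% interval 1.52 to 2.39, adjusted p = 9.8e-05 by limma): it was higher with the Tbx3-high label and higher with the null label. For Id1 the difference was −0.19 (95% interval −0.70 to 0.32, adjusted p = 0.623). For Id3 it was 0.39 (0.05 to 0.73, adjusted p = 0.0986), and it passed without Tbx3-low replicate 2 (0.45, adjusted p = 0.0496). For Id2 it was −0.46 (−0.87 to −0.05, adjusted p = 0.107), and it passed without null-labelled replicate 1 (−0.72, adjusted p = 0.00874). A missed threshold does not show that the systems acted alike.

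**Figure D2:**
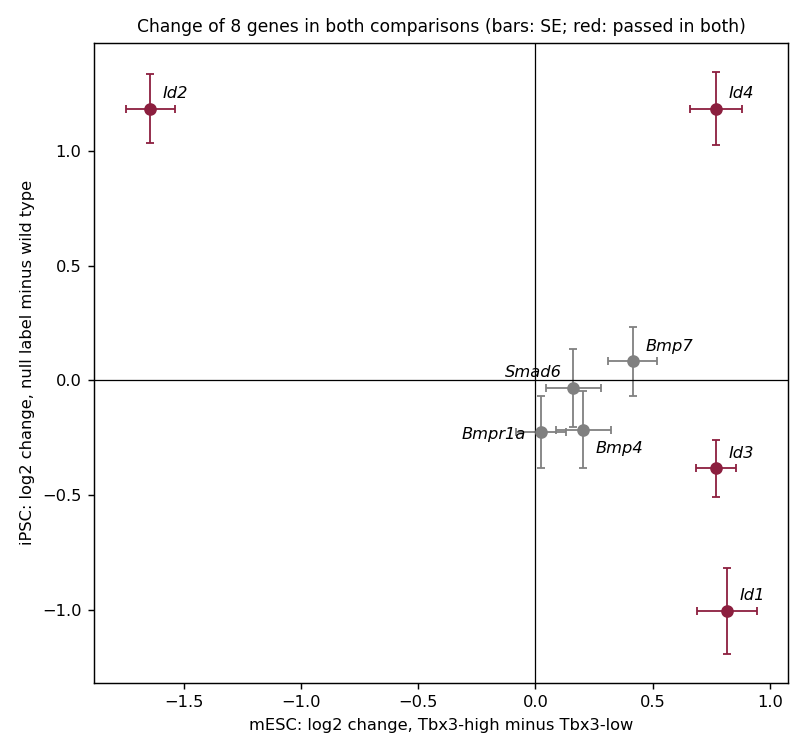
Log2 change in mESC (horizontal axis, Tbx3-high minus Tbx3-low) against log2 change in iPSC (vertical axis, null label minus wild type) for the 8 genes measured on all arrays; bars are standard errors and red points passed in both comparisons. Id1 and Id3 sit at lower right and Id2 at upper left, with opposite signs, while Id4 sits at upper right; Bmp2, near background, is left out.

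The ligands showed a different picture: Bmp7 and Bmp2 were higher in Tbx3-high mESC, and none of Bmp2, Bmp4 and Bmp7 passed in iPSC. Bmp4 is the ligand most used to support mouse embryonic stem cells. Its brighter probe lies at chr14:47003391-47003450 (mm9, minus strand) and read 1.45, 1.501, 1.69 and 1.56 on the Tbx3-low arrays and 1.97, 1.77, 1.72 and 1.55 on the Tbx3-high arrays. The highest value came from Tbx3-high replicate 1, but replicate 4 fell inside the Tbx3-low range. The change was 0.20 ± 0.12 (95% interval −0.05 to 0.46, adjusted p = 0.234 by limma). In iPSC, Bmp4 read 3.19 and 3.42 on the wild-type arrays and 3.30 and 2.88 on the null-labelled arrays, which overlapped. The change was −0.21 ± 0.17 (95% interval −0.59 to 0.16, adjusted p = 0.408 by limma). The second Bmp4 probe, at chr14:47003198-47003257 on the same strand, was not well above background on any of the 12 arrays (−8.04 to −6.08), so only the brighter probe carries the gene's value.

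Bmp7, a ligand that also pairs with other BMPs, has its probe at chr2:172695203-172695262 (mm9, minus strand). Bmp7 read 2.24, 2.29, 2.41 and 2.49 on the Tbx3-low arrays and 2.77, 2.70, 2.88 and 2.74 on the Tbx3-high arrays. All Tbx3-high arrays stood above all Tbx3-low arrays, by a margin about as wide as the Tbx3-low group itself. The change was 0.41 ± 0.10, a 1.33-fold rise (adjusted p = 0.0140 by limma). With only the 4 arrays in row 1 of the slide the change was 0.47 (adjusted p = 0.0556), and with the 4 in row 2 it was 0.36 (adjusted p = 0.122), so the call was lost in each. In iPSC, Bmp7 read 1.96 and 1.64 on the wild-type arrays and 2.07 and 1.69 on the null-labelled arrays, in overlapping pairs, with a change of 0.08 ± 0.15 (95% interval −0.26 to 0.42, adjusted p = 0.750 by limma). The difference between the systems was 0.50 (95% interval 0.08 to 0.91, adjusted p = 0.0841). It passed with the replicate number as a block (adjusted p = 0.0425) and without null-labelled replicate 2 (0.69, adjusted p = 0.0317).

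Bmp2, a ligand close to Bmp4 in sequence, has its probe at chr2:133388260-133388319 (mm9, plus strand) and lay near background. Bmp2 read −3.36, −3.22, −2.22 and −3.51 on the Tbx3-high arrays, all well above background. On the Tbx3-low arrays it read −5.43, −4.56, −6.69 and −7.06, and only replicate 2, the −4.56 reading, was well above background. The groups did not overlap. Bmp2 entered the test only through the Tbx3-high arrays, and was not tested where signal above background was required on all arrays compared. The fitted change was 2.86 ± 0.51 (adjusted p = 0.00196 by limma), in part against signal that was not measured above background, and its size depended on how faint signal was treated. It was 1.76 (adjusted p = 0.00109) with each faint signal raised to its array's detection floor (the lowest signal counted as well above background), 0.86 (adjusted p = 0.00073) in the deposited series table and 0.61 (adjusted p = 0.00754) after normexp background correction. It was 1.71 within row 1 of the slide and 4.01 within row 2. In iPSC, Bmp2 read −5.73 and −4.72 on the wild-type arrays, both well above background, and −7.25 and −6.72 on the null-labelled arrays, neither well above it. The group means gave at least 1.13-fold lower under the null label, taking the null-labelled arrays at their floors of −5.55 and −5.25, but wild-type replicate 1 lay below both floors. The fitted change did not pass (−1.76 ± 0.76, adjusted p = 0.117 by limma). It was −0.17 with signals raised to the floor (adjusted p = 0.805), −0.19 in the series table (adjusted p = 0.562) and 0.03 after normexp correction (adjusted p = 0.937), and it passed with only the 4 iPSC arrays fitted (adjusted p = 0.0316). No direction is therefore given for Bmp2 in iPSC. The difference between the systems was 1.10 (95% interval −0.96 to 3.17, adjusted p = 0.454), and 1.59 with signals raised to the floor (adjusted p = 0.0452).

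**Figure D3:**
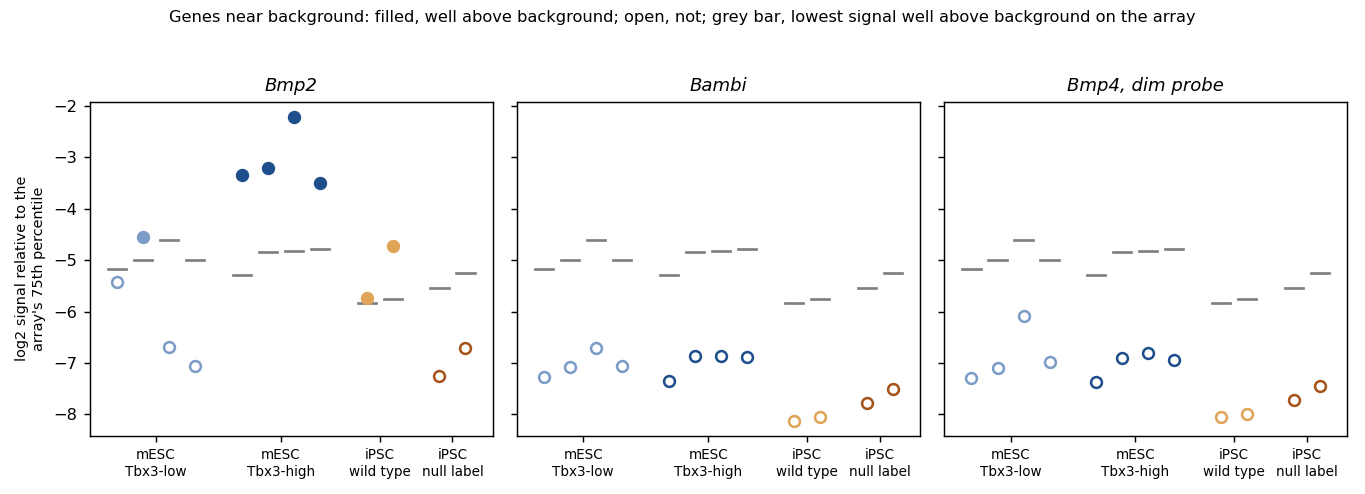
Log2 signal relative to the 75th percentile of each array (vertical axis) for Bmp2, Bambi and the dimmer Bmp4 probe on the 12 arrays, by group. Filled points were well above background, open points were not, and each grey bar is the detection floor of its array; Bmp2 is filled on all 4 Tbx3-high arrays, on 1 of 4 Tbx3-low arrays and on both wild-type arrays, and the other panels hold open points alone.

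Bmpr1a encodes the type I receptor ALK3, which binds Bmp2 and Bmp4, and its probe lies at chr14:35224339-35224398 (mm9, minus strand). Bmpr1a read 1.86, 1.754, 2.14 and 1.96 on the Tbx3-low arrays and 1.89, 1.87, 1.93 and 2.12 on the Tbx3-high arrays. The ranges lay over each other. The change was 0.02 ± 0.11 (95% interval −0.22 to 0.26, adjusted p = 0.905 by limma), an interval that ends below the change of every Id gene that rose. In iPSC, it read 2.11 and 1.97 on the wild-type arrays and 2.004 and 1.62 on the null-labelled arrays, with a change of −0.22 ± 0.16 (95% interval −0.57 to 0.13, adjusted p = 0.342 by limma).

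Smad6 is an inhibitory Smad that BMP signalling induces and that blocks the same pathway. Its probe lies at chr9:63800980-63801039 (mm9, minus strand) and was well above background on all 12 arrays. Smad6 read −1.86, −1.86, −1.66 and −1.66 on the Tbx3-low arrays and −1.69, −1.70, −1.33 and −1.66 on the Tbx3-high arrays. Only Tbx3-high replicate 3 stood clear of the Tbx3-low range. The change was 0.16 ± 0.12 (95% interval −0.10 to 0.42, adjusted p = 0.356 by limma). In iPSC, Smad6 read −2.08 and −2.09 on the wild-type arrays and −1.89 and −2.34 on the null-labelled arrays, 1 above and 1 below, with a change of −0.03 ± 0.17 (95% interval −0.41 to 0.34, adjusted p = 0.918 by limma). Bambi, a membrane protein resembling a type I receptor without its kinase domain, was not well above background on any of the 12 arrays (−8.12 to −6.71) and was not tested.

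**Figure D4:**
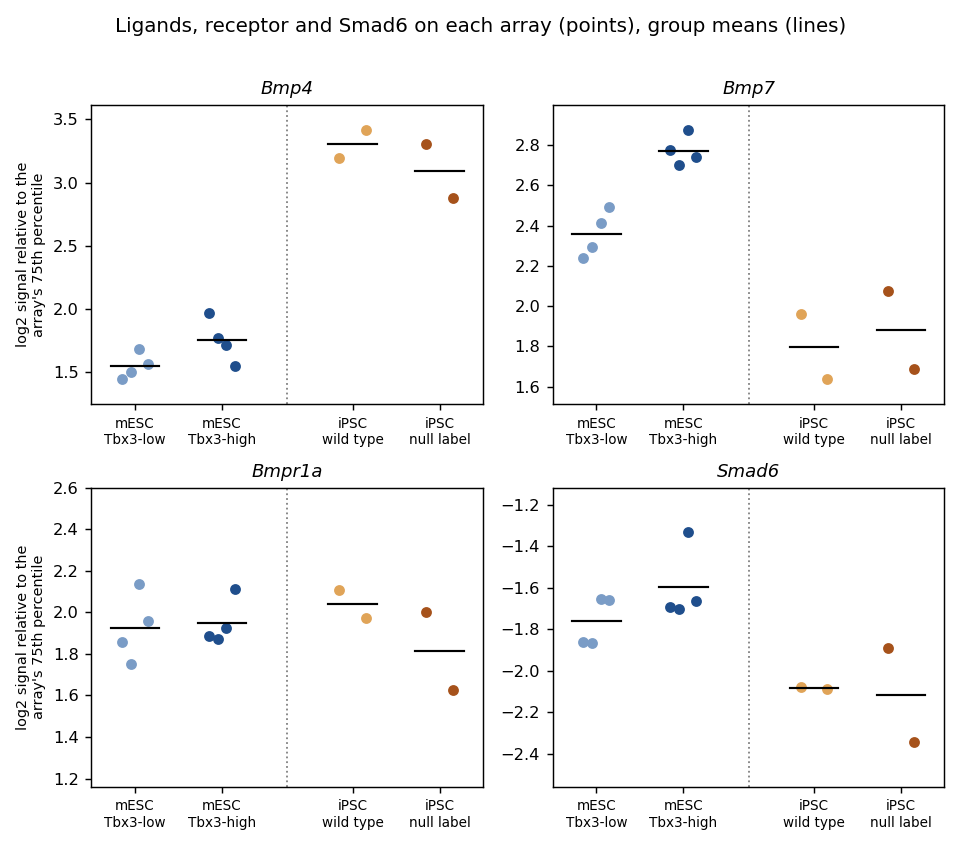
Log2 signal of Bmp4 (brighter probe), Bmp7, Bmpr1a and Smad6 relative to the 75th percentile of each array (vertical axes, 1 scale per gene) in the 4 groups. Points are arrays and black lines group means; the Tbx3-low and Tbx3-high arrays of Bmp7 are separate, those of the other genes overlap, and the iPSC groups overlap in all 4 panels.

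Over the 10 genes, 5 were higher and 1 was lower in Tbx3-high mESC, 3 did not pass and Bambi was not tested; without Bmp2, which was tested only through its Tbx3-high arrays, 4 were higher. Of all 30691 probes tested, 25.9% passed, 14.5% higher and 11.4% lower. The median change of the 9 genes tested was 0.41, against 0.04 over all probes tested. The mESC groups did not overlap for the 4 Id genes, Bmp2 and Bmp7, and 29.2% of all probes tested showed no overlap. In iPSC, 2 genes were higher, 2 were lower and 5 did not pass, against 28.3% of 36712 probes passed, 15.5% higher and 12.9% lower; the median was −0.21, against 0.05 over all. The iPSC groups did not overlap for the 4 Id genes and Bmp2, but with 2 arrays a group 66.4% of all probes tested showed no overlap. The difference between the systems passed for 1 of 9 genes, against 23.0% of 37071 probes (12.8% higher, 10.1% lower). Both comparisons were passed with opposite signs by Id1, Id2 and Id3, against 9.04% of the 30332 probes tested in both, and with the same sign by Id4, against 3.50%. These shares are of probes, whereas the 10 genes are counted by their brightest probe. Fitted with 1 probe per gene, larger shares passed, 5482 of 15853 genes in mESC and 6744 of 17776 in iPSC. With so few genes the counts of the 10 are a description.

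The other genes of the pathway were read from lists by role, each gene by its brightest probe. Of all probes tested, 25.9% passed in mESC and 28.3% in iPSC. Fitted with 1 probe per gene, larger shares passed, 5482 of 15853 genes in mESC and 6744 of 17776 in iPSC. The counts of the lists stand against these shares of genes. A gene not above background in 1 group was tested only through the other group. Its adjusted p belongs to the fitted change, not to the lower bound of its fold, and its place in a count is no support for a direction. Of 12 other BMP and GDF ligands, 7 were tested in mESC, where 1 rose and 2 fell, and 8 in iPSC, where 1 rose and 2 fell. The medians were 0.29 and −0.21. Bmp8b, a ligand of the extraembryonic ectoderm, fell by 0.83 ± 0.07 in Tbx3-high mESC (adjusted p = 9.8e-06 by limma). Bmp6 was lower in Tbx3-high mESC at −0.34 ± 0.10 (adjusted p = 0.0283) and higher under the null label by 0.83 ± 0.14 (adjusted p = 0.00182). Gdf5, a joint-forming ligand, went the other way at 0.43 ± 0.11 (adjusted p = 0.0143) and −0.69 ± 0.16 (adjusted p = 0.00948), but its second probe passed in neither (0.30, adjusted p = 0.102, and 0.08, adjusted p = 0.811). Bmp8a was lower under the null label at −1.01 ± 0.23 (adjusted p = 0.00781).

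Of 9 other receptors and coreceptors, 8 were tested in each system: 3 rose in Tbx3-high mESC and none fell, and 2 rose and 4 fell under the null label, with medians of 0.28 and −0.27. Acvrl1, the type I receptor ALK1 of endothelial cells, rose by 0.91 ± 0.06 in Tbx3-high mESC (adjusted p = 1.8e-06 by limma) and was lower under the null label at −0.29 ± 0.08 (adjusted p = 0.0261). Acvr1, the type I receptor ALK2, rose by 0.46 ± 0.06 (adjusted p = 3.0e-04) and was lower under the null label at −0.45 ± 0.09 (adjusted p = 0.00347); its second tested probe passed in the same directions. Eng, a coreceptor of Acvrl1, rose by 0.42 ± 0.07 in mESC (adjusted p = 0.00166). The coreceptors Rgmb and Rgma changed in opposite directions under the null label, at 0.59 ± 0.14 (adjusted p = 0.0118) and −0.64 ± 0.16 (adjusted p = 0.0153).

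Of 7 other Smads and Smad ubiquitin ligases, 6 were tested in mESC, where 2 rose, and 7 in iPSC, where 3 fell, Smad9 among them only through its wild-type arrays; the medians were 0.17 and −0.20. Smad7, the other inhibitory Smad, rose by 0.82 ± 0.12 in Tbx3-high mESC (adjusted p = 5.5e-04 by limma) and was −0.71 ± 0.18 under the null label (adjusted p = 0.0134), whereas Smad6 passed in neither. The receptor-activated Smad1 rose by 0.43 ± 0.12 in mESC (adjusted p = 0.0238). Smad5 was lower under the null label at −0.35 ± 0.10 (adjusted p = 0.0311), though its second probe did not pass (−0.23, adjusted p = 0.131). Smad9 was at least 1.25-fold lower there, with the null-labelled arrays not well above background (fitted change −2.51, adjusted p = 1.4e-05).

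Of 17 extracellular antagonists and modulators, 10 were tested in mESC, where 3 rose and 1 fell, and 11 in iPSC, where 1 rose and 3 fell, Chrdl2 among them only through its wild-type arrays; the medians were 0.18 and 0.05. Bmper, among the 3 that rose (0.59 ± 0.19, adjusted p = 0.0460 by limma), was well above background on only 2 Tbx3-low arrays. It was therefore tested in mESC only through its Tbx3-high arrays. Fst, follistatin, which binds activins and some BMPs, rose by 1.26 ± 0.10 in Tbx3-high mESC (adjusted p = 5.6e-06 by limma) and was −1.32 ± 0.14 under the null label (adjusted p = 7.6e-05). Fstl1, a follistatin-like secreted protein, rose by 1.08 ± 0.08 in mESC (adjusted p = 4.1e-06) and Fstl3 fell there at −0.66 ± 0.17 (adjusted p = 0.0160). Dand5, an antagonist of Nodal and BMP, rose by 0.59 ± 0.12 under the null label (adjusted p = 0.00415). Chrdl2, a chordin-like protein, had null-labelled arrays not well above background (fitted change −1.96, adjusted p = 0.00360), and its lower bound of 1.01-fold is close to no change. The classical antagonists Nog and Chrd, named after their values were seen, passed in neither comparison: Nog changed by −0.18 and 0.50 (adjusted p = 0.332 and 0.0726), and Chrd by −0.03 and 0.14 (adjusted p = 0.871 and 0.514).

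Of 9 other BMP target genes, Smad7 among them again, 7 were tested in mESC, where 1 rose and 2 fell, and 9 in iPSC, where 3 rose and 1 fell; the medians were −0.03 and −0.01. Dusp9, a phosphatase that BMP4 is known to induce in embryonic stem cells and that damps ERK, was −0.79 ± 0.09 in Tbx3-high mESC (adjusted p = 8.7e-05 by limma) and 0.51 ± 0.13 under the null label (adjusted p = 0.0144). Its signs were those of Id2, not of Id1 and Id3. Hey1, a transcriptional repressor also induced by Notch, was −0.42 ± 0.11 in mESC (adjusted p = 0.0194) and 0.59 ± 0.17 under the null label (adjusted p = 0.0233). Gata2 rose by 0.70 ± 0.13 under the null label (adjusted p = 0.00222). Of the 3 E-protein partners of Id, Tcf4 alone passed, at 0.39 ± 0.07 in mESC (adjusted p = 0.00273) and −0.33 ± 0.11 under the null label (adjusted p = 0.0436); its second probe gave 1.07 (adjusted p = 2.0e-04) and −0.44 (adjusted p = 0.136). Tcf3 did not pass on its brightest probe, but its second probe rose by 0.57 under the null label (adjusted p = 0.00981). Over these 56 pathway genes, 40 were tested in both systems, of which 10 passed both with opposite signs: Gdf5, Acvr1, Acvrl1, Smad7, Fst, Bmper and Tcf4 were higher in Tbx3-high cells, and Bmp6, Dusp9 and Hey1 were lower. Bmper was tested in mESC only through its Tbx3-high arrays, so its place in this count is no support for a direction. Of all probes tested in both, 9.04% passed with opposite signs and 3.50% with the same sign. These are shares of probes, whereas the 40 genes are counted by their brightest probe. With 1 probe per gene larger shares passed in each comparison, so the 10 of 40 cannot be set directly against 9.04%. None of the 40 genes passed with the same sign, which is near the 3.50%.

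**Figure D5:**
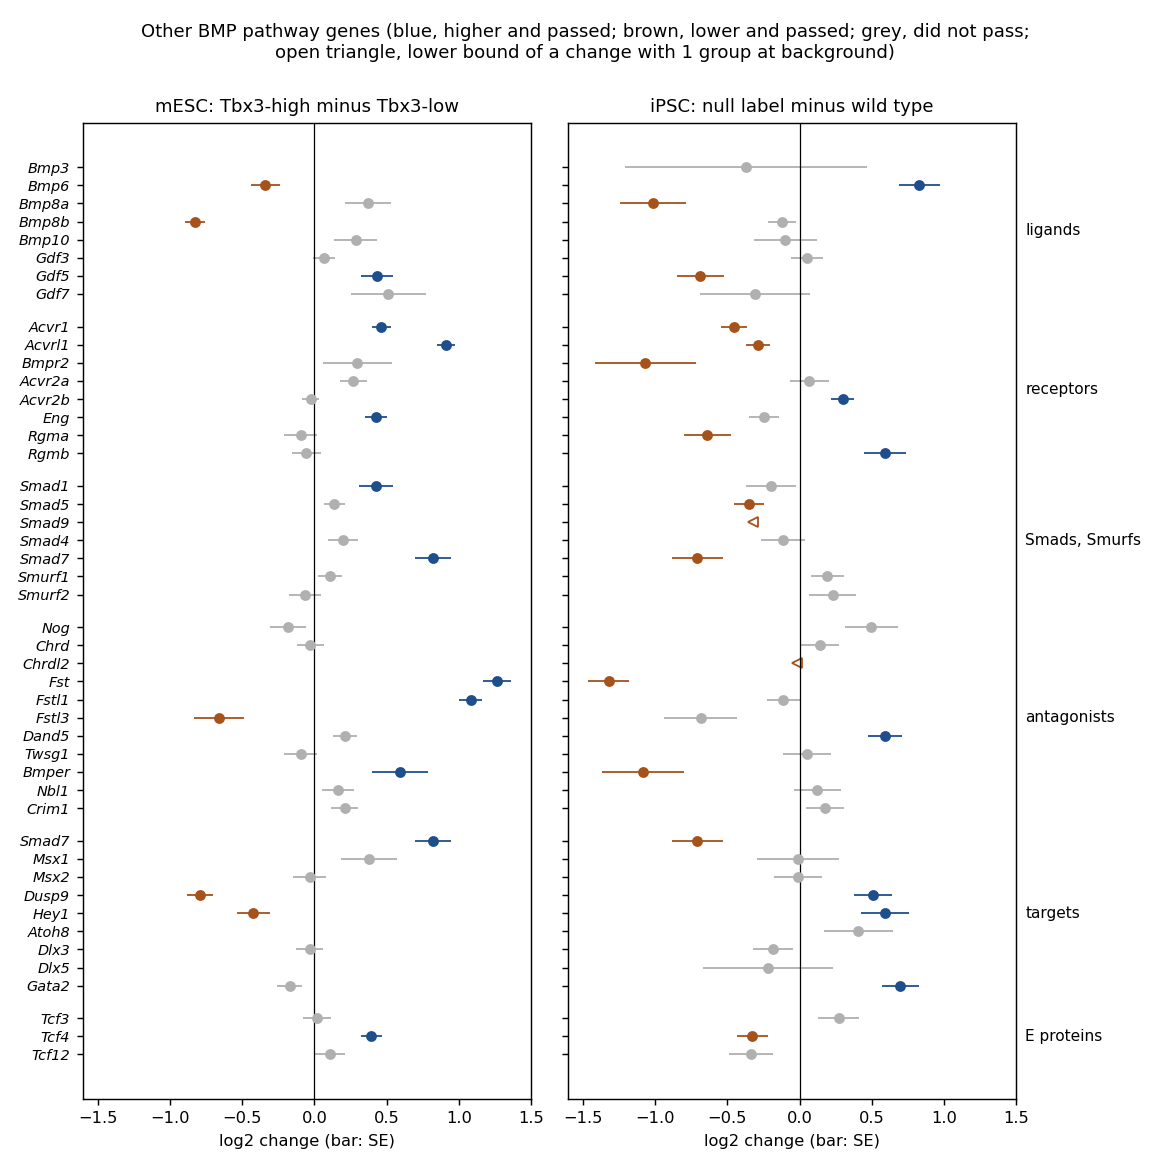
Log2 change (horizontal axes) of the other BMP pathway genes tested, by role, for Tbx3-high minus Tbx3-low mESC at left and null label minus wild-type iPSC at right; bars are standard errors. Blue points rose and brown points fell with an adjusted p under 0.05, grey points did not pass, and open triangles are lower bounds for Smad9 and Chrdl2, whose null-labelled arrays were not well above background; Smad7 appears under Smads and under targets.

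Markers of other cell types moved beside the Id genes. In this bulk RNA, fewer cells of a type and less RNA per cell cannot be told apart. The summed signal of 8 trophectoderm markers, in units of the 75th percentile signal of the array, was 43.9 to 46.5 in Tbx3-low and 16.4 to 18.6 in Tbx3-high mESC, and 23.0 to 25.3 in wild-type and 28.9 to 34.1 in null-labelled iPSC, so that it was lower in Tbx3-high cells and higher under the null label, as Id2 was. Of 6 tested in mESC 5 fell and 1 rose, led by Gata3 (−1.57, adjusted p = 4.1e-07 by limma), Tfap2c (−1.40, adjusted p = 1.1e-06) and Krt18 (−1.72, adjusted p = 1.5e-06). The 1 that rose was Eomes (1.39, adjusted p = 4.5e-06), whose second probe rose too (1.22, adjusted p = 2.6e-04). Eomes thus went against the summed signal, and against Id2, in both systems. Of 6 tested in iPSC 3 rose and 1 fell, led by Eomes (−1.66, adjusted p = 2.7e-05), Gata3 (0.78, adjusted p = 7.4e-04) and Krt18 (0.72, adjusted p = 0.00707). Of the 2 that did not pass in iPSC, Cdx2 was lower under the null label (−1.64, adjusted p = 0.0541 by limma), against the summed signal. The other, Krt8, was higher (0.55, adjusted p = 0.110 by limma). Elf5 was well above background on no array, and Cdx2 on no Tbx3-high array.

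The summed signal of 10 primitive endoderm markers was 1.88 to 2.29 in Tbx3-low and 2.92 to 3.60 in Tbx3-high mESC, and 3.97 to 4.43 in wild-type and 1.89 to 2.15 in null-labelled iPSC, so that it was higher in Tbx3-high cells and lower under the null label, as Id1 and Id3 were. In mESC 4 of 8 tested rose, led by Gata6 (1.49, adjusted p = 1.5e-05 by limma), Pdgfra (1.30, adjusted p = 1.0e-04) and Hnf4a (0.77, adjusted p = 1.1e-04). In iPSC 5 of 9 tested fell, among them Gata6 (−1.90, adjusted p = 5.6e-05) and Hnf4a (−1.13, adjusted p = 1.4e-04). Afp (at least 2.40-fold lower; fitted change −3.04, adjusted p = 4.0e-06) and Pdgfra (at least 2.21-fold lower) are counted in the 5 but were tested only through the wild-type arrays, and Pdgfra in mESC only through the Tbx3-high arrays. Ttr was well above background on no array.

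The summed signal of 10 fibroblast markers was 2.66 to 2.85 in Tbx3-low and 3.19 to 28 in Tbx3-high mESC, the last from Thy1 on replicate 2, and 2.35 to 2.48 in wild-type and 1.18 to 1.24 in null-labelled iPSC. In mESC 2 of 6 tested rose and 1 fell: Pdgfrb (1.83, adjusted p = 5.9e-07 by limma), Col1a1 (1.54, adjusted p = 2.6e-06) and Col6a1 (fitted change −1.32, adjusted p = 0.00538). Col6a1 was well above background on only 1 Tbx3-high array and was tested in mESC only through the Tbx3-low arrays. In iPSC 2 of 8 fell and 1 rose: Pdgfrb (−2.22, adjusted p = 2.8e-06), Col1a1 (−2.32, adjusted p = 3.2e-06) and Lum (at least 1.51-fold higher; fitted change 2.58, adjusted p = 5.3e-05, tested only through the null-labelled arrays). Postn was well above background on no array. The summed signal of 8 mesoderm and streak markers was 5.79 to 8.37 in Tbx3-low and 6.43 to 7.56 in Tbx3-high mESC, and 9.54 to 11.4 in wild-type and 9.41 to 10.9 in null-labelled iPSC. In mESC Gsc rose (0.53, adjusted p = 0.00259 by limma) and Hand1 fell (−1.54, adjusted p = 0.00173 by limma) of 6 tested. Hand1 is also in the trophectoderm list, so its fall is counted in both lists and its signal in both sums. In iPSC T fell (−3.83, adjusted p = 4.5e-05) and Tbx6 rose (0.76, adjusted p = 0.0446) of 4. The second Tbx6 probe did not pass in iPSC (−0.10, adjusted p = 0.779). Kdr did not pass there on its brightest probe (0.19, adjusted p = 0.546), but its second probe fell (−1.23, adjusted p = 0.00163). Among the 8 pluripotent cell markers, Esrrb (0.50, adjusted p = 4.0e-04), Zfp42 (0.46, adjusted p = 6.9e-04) and Tdgf1 (0.25, adjusted p = 0.00763) rose and Utf1 fell (−0.29, adjusted p = 0.0298) in Tbx3-high mESC, and none passed in iPSC. Nanog did not pass in mESC on its brightest probe (0.12, adjusted p = 0.188), but its other probes rose there (0.41, adjusted p = 0.0460, and 0.41, adjusted p = 0.00312). The second Esrrb probe did not pass in mESC (0.61, adjusted p = 0.0628). The part of these cell types, and in iPSC of the lower share of spots above background under the null label, in the Id and BMP changes was not tested.

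For the genes tested, the gene outside the 10 whose pattern was most like it was taken by Pearson r over the 12 arrays, after centring within mESC and within iPSC, among 15664 genes. These arrays share groups, slides and scaling, and r is given as a description. The closest gene to Id1 was Ankib1 (r = 0.99, changes of 0.38 in Tbx3-high mESC and −0.47 under the null label), and to Id3 Srrm4, a neural splicing factor (r = 0.98, changes of 0.59 and −0.29). The closest to Id4 was Mrpl46, a mitochondrial ribosomal protein (r = 0.98), with 0.24 and 0.45, higher in both as Id4 was. Among the ligands the closest genes were Sun2 for Bmp2 (r = 0.96), Mrpl41 for Bmp4 (r = 0.91) and Aldoc for Bmp7 (r = 0.98). For Bmpr1a it was Shld2 (r = 0.93), and for Smad6 Gamt (r = 0.95).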

How the data were processed

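Per the labels' protocols, 50 ng of RNA a sample, purified on RNeasy columns, was labelled by the Low Input Quick Amp method. The deposited intensity of each spot came from Agilent Feature Extraction 10.7.3.1 (per the file headers), background-subtracted, not scaled between arrays, with probes placed on mm9. The series table deposited by the authors holds log2 values (medians 6.58 to 6.61) of unstated scaling and background treatment and served as an alternative only. Spots with an outlier mark were set to missing. Log2 intensity minus the 75th percentile of the array's non-control probes was averaged over the spots of a probe. A probe was tested if all arrays of 1 or more of the groups compared held it well above background.

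All 12 arrays were fitted with 4 group means in limma 3.58.1 (R 4.3.3), with 8 residual degrees of freedom and Benjamini-Hochberg adjustment over all probes tested; the steps were tested on simulated data with 200 changed probes. Intervals are 95% and unadjusted. Each gene was represented by its brightest probe (highest mean over 12 arrays). Where 1 group was not above background, the fold is a lower bound against each array's detection floor, the lowest signal counted as well above background. Names came from a RefSeq table (GRCm38): the accession gave the name of 27650 probes, the symbol 3406 and a synonym 307, while 2071 stayed with the scanner files' name and 22247 had none. The 10 genes and the lists were chosen with earlier results of these data known. Genes named were all 10, in each list the 3 with the smallest adjusted p among those that passed in each comparison, genes the text turns on, and the closest gene to each; that of Id2 is not reported here. Each of the 4 pairs of mESC replicates of the same number correlated at over 0.1 in its deviations (0.15, 0.24, 0.17 and 0.12). Other pairs in the same slide row were positive too (0.04 to 0.34), so pairing by number cannot be told apart from slide row. The 1 iPSC pair that could be checked gave 0.003. Replicate number was not a block in the main fit and served as an alternative only. Alternatives were other normalization, background, filter, probe and block choices, array weights, slide rows and leaving out each array; raising faint signals to the floor was chosen after the data were seen. The number of arrays limits precision.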

Additional observations from a re-analysis of the deposited data

Results flagged for a closer look

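Of 22 groups of 4 arrays examined, 2 held an array far from the other 3 (Dixon's test at 95%), and chance alone marks about 1 group in 20. In Tbx3-high mESC, Smad6 on replicate 3 read −1.33 against −1.70 to −1.66 on the others, a gap of 0.896 of the range. In the same group, Bambi on replicate 1 read −7.35 against −6.87 to −6.86, a gap of 0.979 of the range, with no array well above background. Before scaling, its signal was 2.796 on replicate 1, inside the range of the others (2.755, 3.056 and 2.674). The 75th percentile that scales the array was 457.7 on replicate 1, against 313.8 to 356.1 on the others.

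Id4 differed between the cell systems by 1.95 (log2, adjusted p = 9.8e-05 by limma): it rose by 0.77 in Tbx3-high mESC and by 1.18 under the null label in iPSC.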

How the results depend on the processing

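Of 546 values of single genes under an alternative, 506 kept their direction and their side of the threshold, 23 changed sign, 8 passed newly and 9 lost their call. Id1, Id2 and Id4 kept their calls in both comparisons and Id3 in mESC under every alternative run, as did Bmp2 in mESC wherever it was tested (not with the filter that asks for signal above background on all arrays compared), whose change ranged from 0.61 to 4.01. The count that passed was 5 to 6 in mESC and 3 to 4 in iPSC. For the difference between systems it was 1, and 2 with normexp background or the deposited series table (Id2 added), with the replicate block (Bmp7 added) and with raised signals (Bmp2 added); leaving out 1 array gave 1 to 2. Besides the arrays that end the Id3 call in iPSC, that call was lost with no filter on dim probes (adjusted p = 0.0886), with only the iPSC arrays (adjusted p = 0.102) and with the replicate block (adjusted p = 0.0553). The block changed no other call except that of the Bmp7 difference. All sign changes were in genes that did not pass. Bmpr1a in mESC was −0.0095 (quantile), −0.0019 (normexp), −0.032 (series table) and −0.0263 (row 2 alone). Smad6 in iPSC was 0.0304 (quantile), 0.0397 (normexp) and 0.038 (series table), and Bmp2 in iPSC 0.0271 (normexp). With the mean of its probes Bmp4 was 0.11 in iPSC and 0.14 in the difference, which was 0.0072 with array weights. Leaving out 1 array gave −0.0336 to 0.0941 for Bmpr1a in mESC, −0.11 to 0.28 for Bmp7, −0.43 to 0.0013 for Bmp4 and −0.26 to 0.19 for Smad6 in iPSC, and −0.22 to 0.21 for Bmp4 and −0.10 to 0.35 for Smad6 in the difference. The cause was not tested. All probes that passed numbered 7946 in mESC and 10398 in iPSC, and 5434 to 9410 and 6952 to 11753 over the alternatives fitted on probes; fits with 1 value per gene, which test fewer features, gave 5482 and 6744 genes by the brightest probe and 5268 and 6572 by the mean of probes. Faint signal limits Bmp2, Bambi and the dimmer Bmp4 probe.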
